A study of Homo sapiens with 4 samples.

Results

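The retinoic acid receptors and the main proteins that carry, make and break down retinoic acid were followed after TOP2B depletion in RPE1 cells. The 10 genes were taken by symbol. They were the receptor genes RARA, RARB, RARG, RXRA and RXRB, the uptake receptor gene STRA6, the carrier gene CRABP2 and the enzyme genes ALDH1A3, DHRS3 and CYP26B1. All 10 were present among the 60725 genes of the deposited count table, and 9 of them had enough reads to be tested, within a total of 15356 tested genes. STRA6 had no read in any library. RPE1 is a telomerase-immortalized cell line (hTERT-RPE1) derived from retinal pigment epithelium, and in both groups it also expressed the SunTag system. Poly(A) RNA was sequenced from 2 control libraries, which received the Silencer Select Negative Control No. 2 siRNA, and from 2 TOP2B knockdown libraries, which received a Dharmacon ON-TARGETplus SMARTpool against TOP2B. Cells were transfected with 10 nM siRNA, transfected again after 48 h and collected 72 h after the second round, on day 5. The loss of TOP2B and the change of siRNA fell on the same libraries, so the effect of one cannot be told apart from that of the other.

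Retinoic acid is made from vitamin A (retinol) by oxidation, first to retinal and then to the acid. In the nucleus it binds RAR proteins, which sit on DNA as heterodimers with RXR proteins and repress or activate their target genes depending on whether ligand is bound. The pathway acts back on its own receptors and supply, since RARB, DHRS3 and the CYP26 genes are classical retinoic acid targets. In the eye, the retinal pigment epithelium handles retinoids for the visual cycle.

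RARB, the receptor gene best known for being induced by its own ligand, carries the response element in its promoter. RefSeq lists 4 start sites for RARB, and 1 of the 4 windows of 250 bases before a start held a direct repeat of retinoid receptor hexamers. This window is shown because RARB was the gene of the 10 that changed most. It lies at chr3:25428013-25428262 on the plus strand of GRCh38.p14, with the 17-base repeat in capitals.
RARB promoter: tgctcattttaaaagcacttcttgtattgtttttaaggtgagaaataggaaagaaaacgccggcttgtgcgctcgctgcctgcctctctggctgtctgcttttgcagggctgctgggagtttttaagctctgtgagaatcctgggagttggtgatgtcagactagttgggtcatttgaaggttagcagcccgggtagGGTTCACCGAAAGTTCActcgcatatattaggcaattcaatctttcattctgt
The repeat ran from 53 to 37 bases before the start (chr3:25428210-25428226). Its 2 hexamers were separated by 5 bases, the spacing of the textbook element. The search covered 3 hexamers, the consensus AGGTCA with its common variants GGTTCA (first in this repeat) and AGTTCA (second here), in any ordered pair, as direct repeats spaced by 1, 2 or 5 bases, on both strands. Such a pair was found in 0.108% of 35116 RefSeq promoter windows, and a pair spaced by 5 in 0.0513%. Of the 23 windows of the 10 genes, this was the 1 with a pair, and DHRS3 had none in its 3 windows. A single hexamer was common: it occurred in 9 of the 23 windows and in 25.1% of all windows. These are matches of letters and not measured binding sites.

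The libraries held 20310259 to 23887013 gene counts, so that 1 CPM (the read count scaled to library size) stood for 20.2 to 23.9 reads. CPM values below use TMM factors. The target of the siRNA was checked first. TOP2B was at 155 and 144 CPM in the control libraries and at 15.3 and 13.3 CPM in the knockdown libraries, a log2(fold change) of -3.38 (SE 0.14, p adj = 5.1e-06). Markers of differentiated pigment epithelium were scarce in both groups: RPE65, TYR, DCT and TTR had no read in any library, and RLBP1 had at most 1. The transcription factor genes MITF and OTX2 and the keratin genes KRT8 and KRT18 were expressed, and none of the 7 tested markers of the 14 listed passed the threshold. The summed level of the 14 markers was 1511 to 1823 CPM in the control and 1181 to 1464 CPM in the knockdown libraries, a sum made up mainly of KRT8 and KRT18, which were lower in both knockdown libraries. The other 5 tested markers, MITF and OTX2 among them, were higher in both knockdown libraries, and the median log2(fold change) of the 7 was 0.19. The part of these differences in the results below was not tested. The 9 markers of other cell types summed to 1.54 to 1.58 CPM in the control and 1.04 to 1.13 CPM in the knockdown libraries, with EPCAM at 0 in every library. Named after their values were seen, the endothelial marker PECAM1 was at 0.962 and 0.383 CPM as group means (log2(fold change) of -1.30, p adj = 0.102), and the glial marker GFAP, too low to test, at 0.105 and 0.39 CPM.

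The RNA of RARB and DHRS3 rose with TOP2B knockdown, and no other tested gene among the 10 passed the threshold. RARB rose 1.90-fold and DHRS3 rose 1.53-fold. Across all tested genes 10.8% were called at an adjusted p under 0.05, with 6.66% called higher and 4.18% called lower. Of the 9 tested retinoic acid genes, 2 were called higher and 0 lower. With so few genes, this count was not tested against the background. The fold changes of the 9 genes had a median of 0.05 on the log2 scale, compared with -0.0029 for all tested genes. Of the 9, 5 were positive, against 7640 of all 15356 tested genes. The 2 libraries of each group did not overlap for 3 of the 9 genes, against 54.3% of all tested genes.

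**Figure D1:**
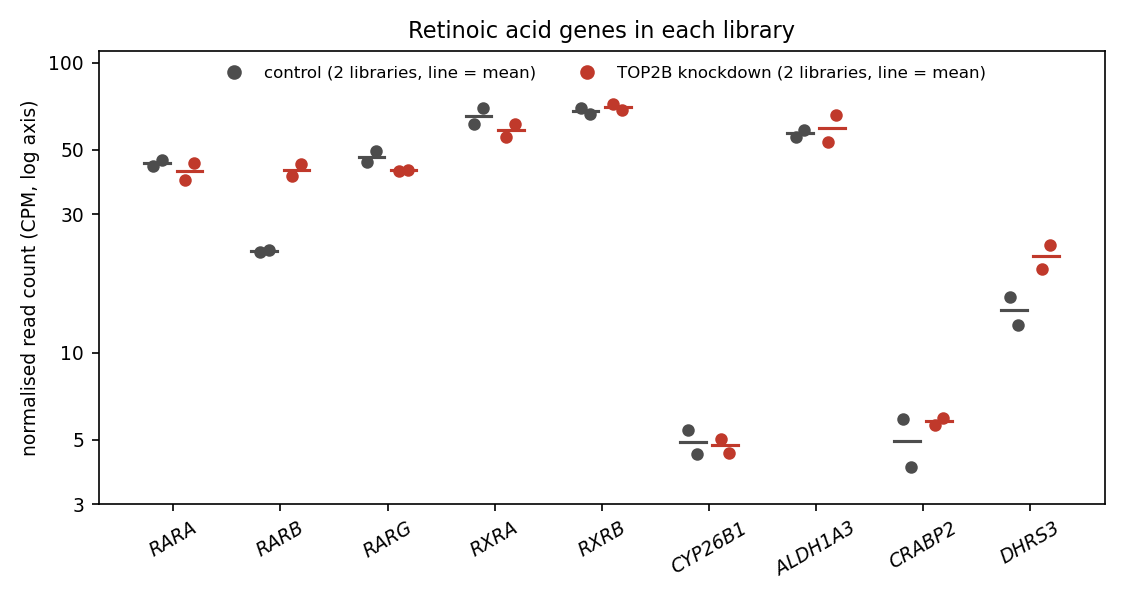
Normalised read count (CPM, log axis) of the 9 tested retinoic acid genes in the 2 control and 2 TOP2B knockdown libraries. Points are libraries and lines are group means. RARB lies near 22 CPM in both control libraries and above 40 CPM in both knockdown libraries, and DHRS3 is the other gene with higher values in both knockdown libraries. STRA6, at 0 in every library, is not drawn.

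Among the RAR genes, RARB was the 1 called. RARB (ENSG00000077092, chr3:24687887-25597932, plus strand, GRCh38) had 534 and 516 reads in the control and 864 and 899 reads in the knockdown libraries. This corresponded to 22.3 and 22.6 CPM in control and 40.8 and 44.6 CPM after knockdown. Both knockdown libraries lay above both controls, and the gap was far wider than the spread within either group. The group means were 22.5 ± 0.239 and 42.7 ± 2.70 CPM (SD, n = 2), and the log2(fold change) was 0.93 (SE 0.12, 95% interval 0.65 to 1.20, p adj = 0.00216). The interval for the fold itself ran from 1.57 to 2.30. A test against a 2-fold change was therefore not passed.

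RARA, the most widely expressed RAR, was at 44.0 and 46.1 CPM in control and 39.3 and 45.2 CPM in knockdown libraries. These ranges overlapped, and the log2(fold change) was -0.09 (95% interval -0.37 to 0.18, p adj = 0.684). RARG, a receptor known from skin and cartilage, was at 45.3 and 49.4 CPM in control and 42.4 and 42.6 CPM after knockdown. Its 2 groups did not overlap, but the difference of -0.16 on the log2 scale (95% interval -0.42 to 0.11, p adj = 0.445) was within the error of the fit. The intervals bound a change of RARA or RARG to at most 1.14-fold higher, and to 0.773 or 0.747 of the control level at the lower end.

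In reads, RARB lay well below the other RAR genes in control cells and about level with them after knockdown. The ratio of RARB to RARA reads was 0.507 and 0.491 in the control and 1.04 and 0.987 in the knockdown libraries. The ratio of RARB to RARG reads was 0.492 and 0.458 in control and 0.962 and 1.05 after knockdown. Both ratios were higher in each knockdown library than in each control library. A two-sided exact permutation test gave p = 0.333 for each, the smallest value that 2 against 2 libraries allow. The ratio of RARA to RARG reads stayed between 0.927 and 1.06 in the 4 libraries, with overlapping groups.

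Per kilobase of exon, RARB was the RAR gene with the lowest level in control cells. With the union of all annotated exons as length, it made up 11.3% ± 0.361 of the summed RAR level in control and 20.8% ± 0.159 after knockdown (SD, n = 2). RARA made up 45.0% ± 0.443 and 40.9% ± 1.79, and RARG 43.7% ± 0.804 and 38.2% ± 1.95. The share depended on the length used, since the union of RARB exons (9445 bases) is far longer than its canonical transcript (3132 bases). Lengths come from GENCODE v44, whereas reads were counted over Gencode v24 genes. The effect of this difference on the levels per kilobase here and below was not tested. With the canonical transcript as length, a setting added after the data were seen, RARB made up 19.3% in control and 33.2% after knockdown. The share was higher in the knockdown libraries under both lengths, at different absolute levels. This direction follows from the read ratios above, since a fixed length per gene cannot reverse it.

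**Figure D2:**
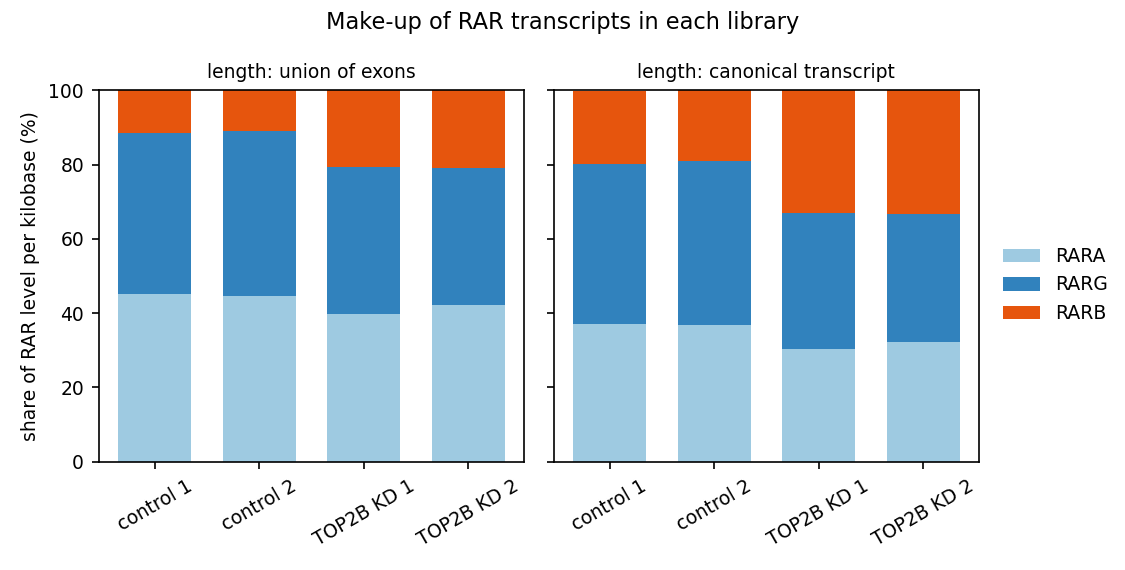
Share of RARA, RARG and RARB in the summed RAR level per kilobase (%), one bar per library, with the union of exons (left) or the canonical transcript (right) as length. The RARB part of the bar is larger in both knockdown libraries under either length, from 11.3% to 20.8% on the left and from 19.3% to 33.2% on the right.

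The RXR genes, which encode the shared partners of RAR and other nuclear receptors, did not pass the threshold. RXRA was at 61.3 and 69.9 CPM in control and 55.5 and 61.5 CPM after knockdown, with a log2(fold change) of -0.17 (95% interval -0.45 to 0.11, p adj = 0.448). RXRB was at 69.6 and 66.4 CPM in control and 72.0 and 68.8 CPM after knockdown, with a log2(fold change) of 0.05 (95% interval -0.21 to 0.31, p adj = 0.83). The libraries of the groups overlapped for both genes. RXRB held 76.3% ± 2.30 of the summed level of RXRA and RXRB per kilobase in control and 78.8% ± 1.74 after knockdown (SD, n = 2). The third RXR gene, RXRG, had no read in any library.

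Of the uptake and transport genes, STRA6 was not detected and CRABP2 was low in CPM, a measure not scaled to gene length. STRA6 encodes the cell-surface receptor through which cells take up retinol from its blood carrier. It had 0 of 20310259 to 23887013 counts in each library, which allows a level of up to 0.125 to 0.149 CPM per library. CRABP2, which carries retinoic acid to the nucleus, was at 5.89 and 4.04 CPM in control and 5.61 and 5.95 CPM after knockdown. The knockdown values lay near the higher control, and the log2(fold change) of 0.22 had a wide interval, from -0.28 to 0.72 (p adj = 0.585). With 92 to 141 reads per library, the interval reached from 0.824-fold to 1.64-fold.

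ALDH1A3, one of the retinal dehydrogenases that complete the synthesis of retinoic acid, was at 55.6 and 58.5 CPM in control and 53.4 and 66.1 CPM after knockdown. The knockdown libraries lay on either side of the controls, and the log2(fold change) was 0.07 (95% interval -0.23 to 0.36, p adj = 0.806). Other genes overlap 33.3% of the exon bases of ALDH1A3, 21.4% of those of RARA and 9.26% of those of RXRB. Which strand was counted is not given in the sources used here, so reads of overlapping genes could have entered these values.

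DHRS3, a retinal reductase that turns retinal back into retinol and so limits the supply of retinoic acid, rose with knockdown. The gene (ENSG00000162496, chr1:12567910-12618210, minus strand, GRCh38) had 372 and 284 reads in control and 411 and 474 reads after knockdown. This was 15.5 and 12.5 CPM in control and 19.4 and 23.5 CPM after knockdown. The groups did not overlap, but each was spread more widely than for RARB. The means were 14.0 ± 2.17 and 21.4 ± 2.91 CPM (SD, n = 2), and the log2(fold change) was 0.61 (SE 0.16, 95% interval 0.25 to 0.98, p adj = 0.0416). The call lay close to the threshold, and when genes had to average 100 counts, p adj was 0.0531. Leaving out control replicate 2 gave a log2(fold change) of 0.47, and leaving out knockdown replicate 2 gave 0.48. Fits that leave out a library keep 1 library in a group, which is assumed to vary like the pair in the other group. Their p-values do not measure stability. The log2(fold change) without 1 library ranged from 0.47 to 0.78 for DHRS3 and from 0.87 to 0.99 for RARB.

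CYP26B1, a cytochrome P450 that breaks down retinoic acid, was at 5.39 and 4.47 CPM in control and 5.05 and 4.51 CPM after knockdown. The knockdown values lay between the controls, and the log2(fold change) was -0.04 (95% interval -0.50 to 0.41, p adj = 0.92). The paralogues showed almost no reads: CYP26C1 had none, and CYP26A1, named here after its values were seen, had 1 read in 1 knockdown library. Retinoic acid is also known to induce STRA6 and CRABP2 in other cells. Of the known retinoic acid targets among the 10 genes, RARB and DHRS3 were thus called higher, CYP26B1 and CRABP2 were not called, and STRA6 had no reads. The differences between these responses were not tested.

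**Figure D3:**
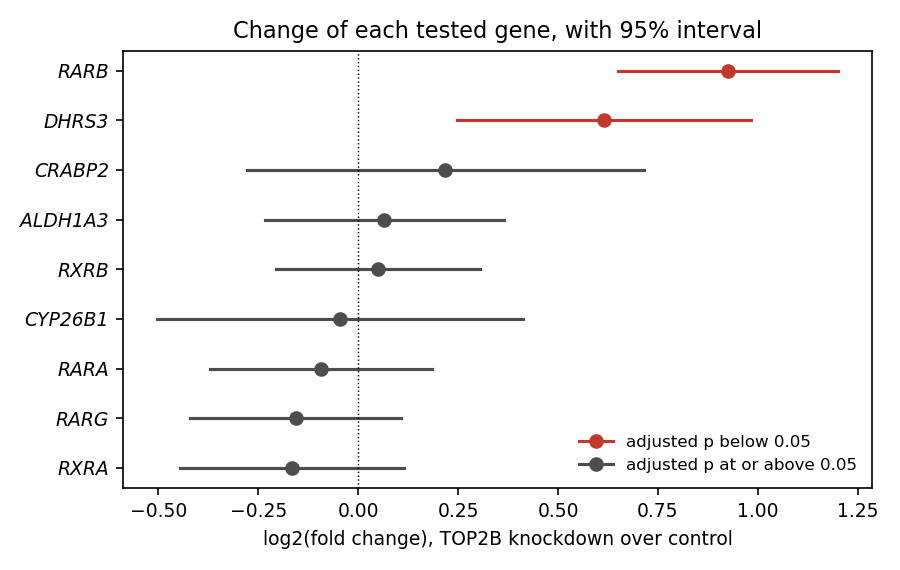
log2(fold change) of TOP2B knockdown over control for the 9 tested genes, with 95% intervals (edgeR, 2 libraries per group). The intervals of RARB and DHRS3 lie above 0, from 0.65 to 1.20 and from 0.25 to 0.98, and the other 7 include 0.

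The order of the genes by level per kilobase of exon showed which RNAs were most abundant. In control cells RXRB stood first at 17.4 ± 0.587 CPM per kilobase (SD, n = 2), followed by ALDH1A3 at 10.7 ± 0.384, RARA at 9.50 ± 0.312 and RARG at 9.24 ± 0.564. RXRA followed at 5.43 ± 0.508, CRABP2 at 4.59 ± 1.21, DHRS3 at 3.98 ± 0.619, RARB at 2.38 ± 0.0253 and CYP26B1 at 1.02 ± 0.133. Neighbours with overlapping control libraries were RARA and RARG, RXRA and CRABP2, and CRABP2 and DHRS3. After knockdown RARB reached 4.52 ± 0.286 and DHRS3 6.10 ± 0.827 CPM per kilobase. RARB stayed eighth in this order, and DHRS3 moved from place 7 to place 5. The knockdown libraries of RARB overlapped those of RXRA (4.84 ± 0.351), which stood at place 7. With the canonical transcript as length, RARB stood at place 6 in control (7.17 ± 0.0763 CPM per kilobase) and at place 4 after knockdown (13.6 ± 0.861). Its knockdown libraries overlapped those of RARA (12.9 ± 1.28). DHRS3 stayed at place 7 in both groups with this length.

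RARB is also the neighbour of the depleted gene. The 2 genes point towards each other on chromosome 3, RARB on the plus strand and TOP2B (chr3:25597978-25664909) on the minus strand. The annotated end of RARB is separated from that of TOP2B by 45 bases (chr3:25597933-25597977, GRCh38). This stretch is shown because it is all that lies between the depleted gene and the receptor gene that rose.
RARB-TOP2B gap: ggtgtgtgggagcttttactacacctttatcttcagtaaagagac
No exon base of RARB is shared with another annotated gene, and 1.17% of the TOP2B exon bases are. On the far side of TOP2B, NGLY1, a deglycosylating enzyme gene, was at 32.8 and 30.1 CPM in control and 30.2 and 32.6 CPM after knockdown (log2(fold change) of -0.0033, 95% interval -0.28 to 0.28, p adj = 0.99). On the far side of RARB, the thyroid hormone receptor gene THRB was at 19.9 and 20.0 CPM in control and 24.5 and 20.3 CPM after knockdown (log2(fold change) of 0.17, 95% interval -0.15 to 0.48, p adj = 0.503). At this locus TOP2B was called lower and RARB higher, and the outer neighbours were not called. Whether the closeness of the genes had a part in the change of RARB was not tested.

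**Figure D4:**
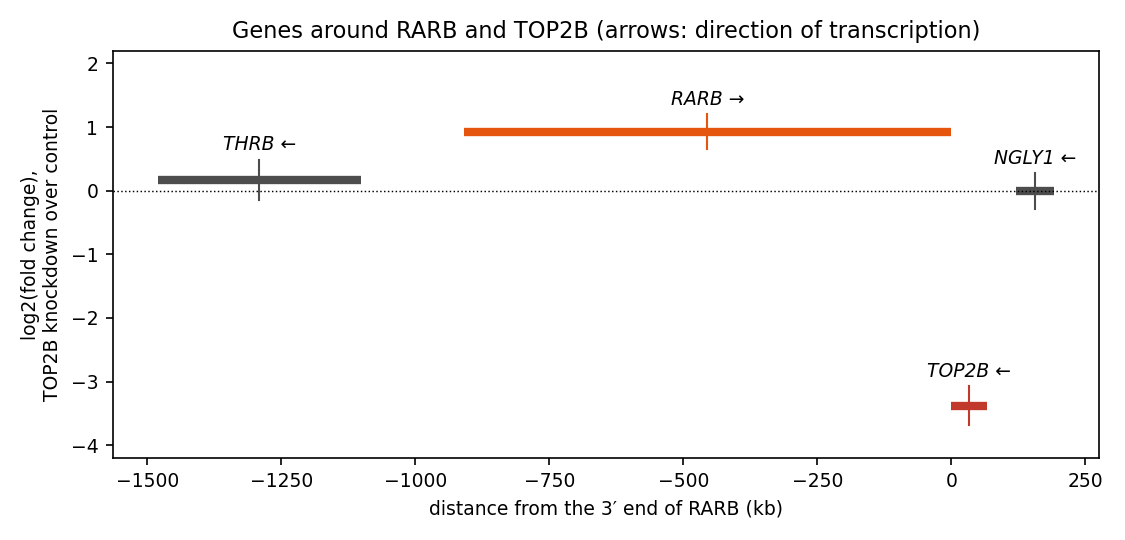
Genes around RARB and TOP2B by distance from the annotated 3′ end of RARB (kb) and log2(fold change) of TOP2B knockdown over control. Thick bars span each gene, thin lines are 95% intervals and arrows give the direction of transcription. RARB lies at 0.93 and TOP2B at -3.38, and the intervals of THRB and NGLY1 include 0.

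The control and knockdown siRNAs differed, and a 6-base word moved with the direction of the calls. GCAACC occurred in the 3′ UTR of the canonical transcript in 39.3% of 936 genes called higher, 19.8% of 606 called lower and 22.5% of 10843 not called. Genes with a very short 3′ UTR were left out, and the shares with the word were not compared at equal 3′ UTR length. This word was looked at with earlier results of these data known. RARB held it once, and the 3′ UTRs of the other 9 genes, DHRS3 included, did not. Of the other called genes described below, RETSAT and TRIM24 (called higher) and HOXB4 (called lower) held no copy. Of the genes around RARB, THRB, which was not called, held 1 copy, and TOP2B and NGLY1 held none. The RARB copy began at base 221 of a 3′ UTR of 1316 bases and is shown with its surroundings at chr3:25596825-25596854 (plus strand, GRCh38), the word in capitals.
RARB 3′ UTR site: cagccatttcatGCAACCagaaactagtta
Its part in the change of RARB was not tested.

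Beyond the 10 genes, few genes of the wider retinoid pathway were called. Of 54 further genes in 5 lists, 33 were tested, 2 were called higher and 1 lower, and the median log2(fold change) of the tested genes was 0.03. The share called was close to the 10.8% of all tested genes. RETSAT, the retinol saturase, was at 44.2 and 35.6 CPM in control and 66.2 and 58.3 CPM after knockdown (log2(fold change) of 0.64, SE 0.14, p adj = 0.0189). TRIM24, a cofactor known to bind retinoic acid receptors, was at 33.7 and 36.0 CPM in control and 49.5 and 47.6 CPM after knockdown (log2(fold change) of 0.48, SE 0.12, p adj = 0.0304). HOXB4, a homeobox gene of the retinoic acid-responsive HOX clusters, was at 8.27 and 7.68 CPM in control and 5.33 and 4.31 CPM after knockdown (log2(fold change) of -0.72, SE 0.19, p adj = 0.0391). For each of these genes the groups did not overlap, which also held for 54.3% of all tested genes. Leaving out 1 library kept every direction but ended some calls, with the lone library again assumed to vary like the other pair. RETSAT was not called without control replicate 2 (log2(fold change) of 0.50, p adj = 0.0979). TRIM24 was not called whichever library was left out (log2(fold change) of 0.43 to 0.53, p adj of 0.0664 to 0.149). HOXB4 was not called without control replicate 1 (-0.67, p adj = 0.0887) or without knockdown replicate 2 (-0.57, p adj = 0.209), nor by DESeq2 (-0.74, p adj = 0.0669).

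By role, none of the 2 tested genes of 7 binding and carrier genes was called. The fatty acid-binding protein gene FABP5 had the highest level there, 12.4 and 14.3 CPM as group means, with a log2(fold change) of 0.20 (p adj = 0.441). CRABP1, RBP4 and TTR had no read in any library. None of 7 tested synthesis genes of 13 was called, and their median was -0.14. ADH5 had the highest level of them at 120 and 108 CPM (log2(fold change) of -0.15, p adj = 0.506). In the list of storage and breakdown, 2 of 5 genes were tested. RETSAT was called, and DGAT1, which can esterify retinol, had a log2(fold change) of 0.58 and did not pass (p adj = 0.0669).

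All 10 cofactors and partner factors were tested, and TRIM24 was the 1 called. The median log2(fold change) of the 10 was 0.07, and 7 of them were positive. Across all tested genes 10.8% were called, and 7640 of 15356 had a positive log2(fold change). Of 22 target genes 13 were tested, with HOXB4 called lower and a median of -0.03. TGM2, the transglutaminase long used as a retinoic acid reporter, was the most abundant target at 841 ± 132 and 1124 ± 201 CPM (SD, n = 2). Its log2(fold change) was 0.42 (95% interval 0.01 to 0.83, p adj = 0.181). Apart from RARB and DHRS3, no listed target was called higher. In these bulk libraries, a change in RNA per cell and a change in the number of cells that express a gene cannot be told apart.

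**Figure D5:**
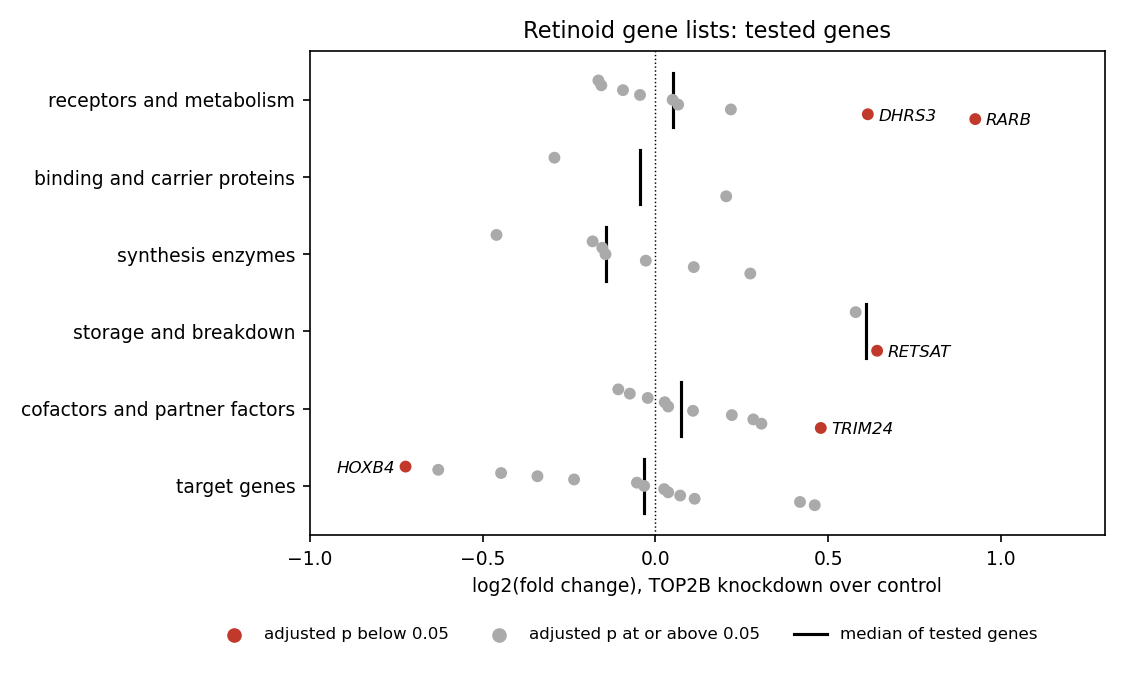
log2(fold change) of TOP2B knockdown over control for the tested genes of the retinoid lists, one row per list. Red points have an adjusted p below 0.05, grey points do not, and black lines mark medians. RARB, DHRS3, RETSAT and TRIM24 are the called genes to the right of 0, HOXB4 is the called gene to the left, and most points lie near 0.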

How the data were processed

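RNA-seq of 2 control and 2 TOP2B knockdown libraries was analysed. Replicates are described in the methods as independent. The authors checked the reads with FastQC (version 0.11.6), aligned them to GRCh38 with STAR (version 2.5.4a) and counted reads over Gencode v24 genes. The deposited values are raw counts per gene, without normalization. The 4 columns are held again under the same names, and these 4 copies were not used. The names of the columns carry a tag for stranded paired-end data, whereas single-end sequencing is described, and which strand was counted is not given in the sources used here.

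Genes that reached 10 counts in 2 or more libraries entered the test with edgeR (version 4.0.16 in R version 4.3.3), using TMM factors, the quasi-likelihood test and Benjamini-Hochberg adjustment over all tested genes, with a threshold of 0.05. Adjusted p-values (p adj) and 95% intervals come from this fit. Alternatives were DESeq2 (version 1.42.0), other filters, a replicate block, a test against a 2-fold change and leaving out each library. Scripts were tested on simulated data. Symbols, positions and exon lengths come from GENCODE v44, which held 98.9% of the tested genes, and promoter sequences from RefSeq (GRCh38.p14). A level without reads is bounded by 3 counts, and such bounds cover counting error only. Named were the 10 genes, TOP2B and its neighbours, each called gene of the retinoid lists and, per list, the most abundant gene not called, except for items not reported here. Genes and lists were chosen with earlier results of these data known.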

Additional observations from a re-analysis of the deposited data

How the results depend on the processing

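Of the 9 tested genes 2 were called, against 1 with a filter at a mean of 100 counts, 0 in a test against a 2-fold change and 1 to 2 without 1 library. RARB was past the threshold in 11 of 12 alternatives, the exception being the test against a 2-fold change (log2(fold change) of 0.93). DHRS3 was past it in 8 of 12. It missed with the filter at 100 counts (0.62, p adj = 0.0531) and against a 2-fold change (0.61), and ranged from 0.47 to 0.78 without 1 library. Without 1 library the sign turned for genes near 0: RARA ranged from -0.19 to 0.0082, CYP26B1 from -0.16 to 0.094, ALDH1A3 from -0.087 to 0.22, CRABP2 from -0.020 to 0.52 and NGLY1 from -0.057 to 0.058. NGLY1 also turned with the filter at 100 counts (1.9e-05) and with protein-coding genes alone (0.0057). Of the 33 further genes 3 were called, and 0 against a 2-fold change. With no filter, 46 of the 54 further genes were tested and 5 were called. HOXB4 was also not called by DESeq2 (-0.74, p adj = 0.0669) or with the filter at 100 counts (-0.72, p adj = 0.0502).

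With the replicate block, 6786 genes were called instead of 1665, 12 instead of 3 of the further genes and 3 instead of 2 of the 9, RXRA (-0.16, p adj = 0.0239) being added. Same-numbered libraries deviated together (r = 0.479 across genes), but the labels give them only a number and there are 2 pairs. Against a 2-fold change 13 genes were called. Fits without 1 library estimate their spread from the pair left in the other group, pooled in part across genes. Their p-values therefore say nothing of stability. The cause of these shifts was not tested. With 2 libraries per group, the depth of 92 to 141 reads limits CRABP2 and 91 to 129 reads limits CYP26B1.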
